A study of Macaca fascicularis with 16 samples.

Results

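Mammary tissue of macaques given tibolone was compared with that of macaques given conjugated equine estrogens (CEE) alone. The members were the 4 arrays labelled tibolone and the 4 labelled CEE, 8 of the 16 arrays of a hormone replacement study, and all 28716 probe sets (10455 genes) over a signal minimum were tested. All animals were female cynomolgus macaques, post-menopausal and ovariectomized, so the ovaries contributed no cyclic hormone in any group. The CEE group received 0.042 mg/kg of CEE and the tibolone group 0.2 mg/kg of tibolone. The groups therefore differed in compound and in dose, which cannot be told apart. The other groups, shown for reference, were an untreated control (n = 4) and CEE at 0.042 mg/kg with medroxyprogesterone acetate (MPA), a progestin, at 0.167 mg/kg (CEE+MPA, n = 4). Each array was 1 animal, and replicates were numbered in the order of deposition.

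CEE is a mixture of sulfated estrogens of horse origin that act through the estrogen receptors. Tibolone is a synthetic steroid that the body converts to 3-hydroxy metabolites, which activate the estrogen receptors, and to a delta-4 isomer, which activates the progesterone and androgen receptors. In the mammary gland estrogen induces the progesterone receptor and a set of direct targets in luminal cells, and progestins act on the same cells to release paracrine signals such as Wnt and RANKL ligands.

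The luminal epithelial markers KRT8, KRT18, KRT19, EPCAM and GATA3 were over the signal minimum on all arrays of both groups, and CDH1 was under it. KRT19, a luminal keratin, had signals of 16964 to 19402 with CEE and 10401 to 19569 with tibolone. GATA3, a luminal transcription factor, lay at 5577 to 8522 and 6622 to 9372. KRT18 lay at 479 to 555 and 380 to 958, and CDH1 at 3.51 to 57.3 and 11.8 to 33.4. The arrays differed in what else they held. The mean of a list of 20 skeletal muscle genes, on a log2 scale centred per gene, was -0.99, -0.91, -0.87 and -0.78 with CEE (replicates 1 to 4, the order used throughout) and -0.32, 2.28, 1.45 and -0.76 with tibolone. Every tibolone array lay above every CEE array (exact two-sided permutation p = 0.0286, the smallest possible, 0.143 adjusted over 5 such measures). Tibolone replicate 3 had the lowest luminal mean (-0.60, against 0.04 to 0.20 with CEE) and was bright for B cell genes. MS4A1, which encodes the B cell antigen CD20, had a signal of 3235 there and of 10 to 50.5 on the other 7 arrays. The poly-A spike-in controls dap and thr put tibolone replicates 1 to 4 and CEE replicates 3 and 4 in a high set, and CEE replicates 1 and 2 in a low set. Exact two-sided permutation tests between the groups gave p = 0.400 for the luminal mean, 0.657 for the 3 prime to 5 prime ratio of GAPDH, 0.743 for dap and a larger one for thr. In bulk tissue fewer cells of a type and less RNA per cell cannot be told apart.

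Tibolone replicate 4 lay closer to the CEE arrays than the other tibolone arrays did. Of all 16 arrays, the one closest to it over the tested probe sets was CEE replicate 4 (r = 0.960), and it was in turn the array closest to CEE replicates 3 and 4. Its mean correlation was 0.955 with the CEE arrays and 0.928 with the other tibolone arrays. Tibolone replicate 1 also correlated slightly more with CEE (0.948) than with the other tibolone arrays (0.942), and the mean r of replicate 3 with the other tibolone arrays (0.929) was as low as that of replicate 4. On the first principal component, with 26.2% of the variance, tibolone replicate 4 lay at 16.9, among the CEE arrays (12.4 to 23.2), while tibolone replicates 1 to 3 lay at -16.8, -53.8 and -59.4. Tibolone replicate 4 shared the high spike-in set with CEE replicates 3 and 4. On the second component (10.3% of the variance) these 3 arrays lay at 23.2, 22.8 and 19.0. CEE replicates 1 and 2, of the low set, lay at -24.1 and -15.5. The part of the spike-in set in this closeness was not tested. Single genes went both ways. Tibolone replicate 4 lay apart from the CEE arrays for GREB1 (150, CEE 234 to 514) and HSD3B2 (165, CEE 1.47 to 10.6). It lay within them for STAT5A (957, CEE 865 to 1200). Whether the label of tibolone replicate 4 is right was not tested, and it was kept in the group its label gives. Results are given with it and, where it decides a call, without it. Because it was singled out from these same values, calls made only without it are descriptive.

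**Figure D1:**
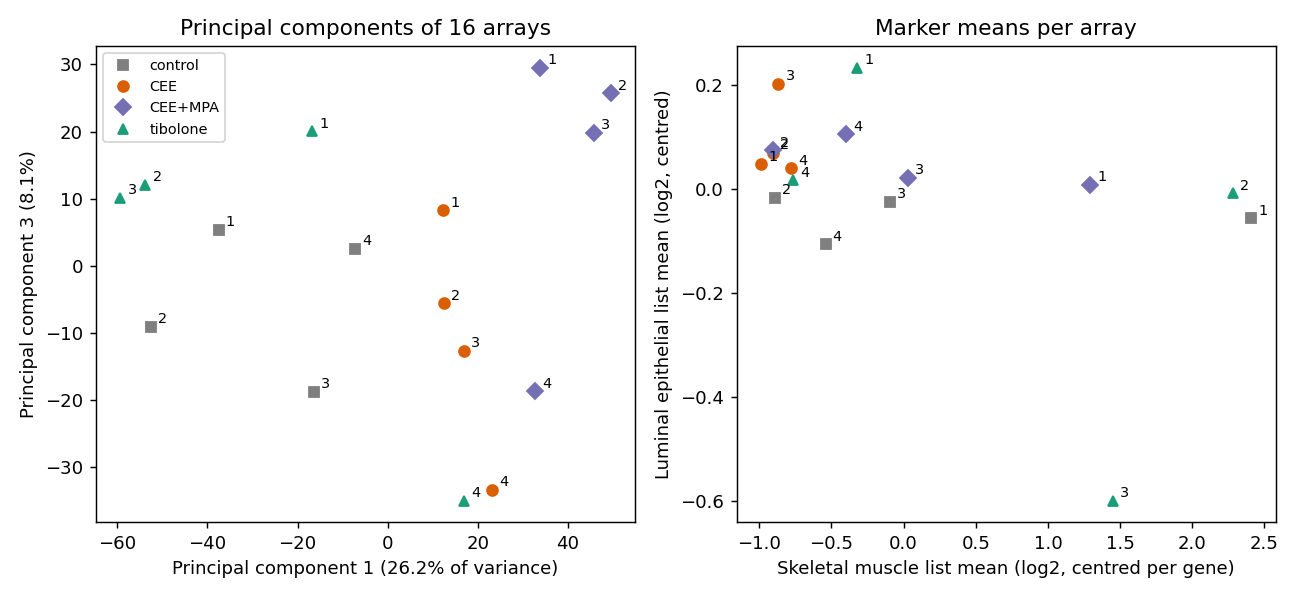
Left, the 16 arrays on principal components 1 and 3 of log2(signal + 16), 1 point per array with its replicate number and a shape per group. Right, the skeletal muscle list mean against the luminal epithelial list mean, both log2 and centred per gene. Tibolone replicate 4 (16.9 on component 1) sits beside CEE replicate 4 (23.2), and tibolone replicates 2 and 3 have skeletal muscle means of 2.28 and 1.45.

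At an adjusted p under 0.05, 2 of 28716 probe sets differed between tibolone and CEE (0.00696%), 1 lower and 1 higher (0.00348% each). No gene's representative probe set passed (0 of 10455), although 1358 genes had an unadjusted p under 0.05 in the limma fit (13.0%), 684 higher with tibolone (6.54%) and 674 lower (6.45%). At 0.10 adjusted, 15 probe sets (0.0522%) and 4 genes (0.0383%) passed. At an unadjusted p under 0.05 there were 3424 probe sets (11.9%), 1786 higher (6.22%) and 1638 lower (5.70%), where 1436 would be met with no difference. The 4 arrays of 1 group lay entirely above or below those of the other for 616 genes (5.89%), with tibolone above for 300 (2.87%) and below for 316 (3.02%). The median log2 difference of all genes was 0.01, and a gene's standard error had a median of 0.19. Of the tested probe sets 52.2% were higher in value with tibolone, and 42.1% with median centring. The model's other contrasts share these arrays, and 21 probe sets passed for CEE against control (0.0731%), 7 for tibolone against control (0.0244%) and 1820 for tibolone against CEE+MPA (6.34%). A gene higher with tibolone than with CEE may have been lower with CEE than in control. A difference below therefore does not by itself stand for a rise or fall with tibolone.

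The probe set that was lower is annotated to TMPRSS3, a transmembrane serine protease. Its signals were 2700, 2054, 3690 and 545 with CEE and 205, 44.2, 32.2 and 40.8 with tibolone. All tibolone arrays lay below all CEE arrays, and 3 of them within or near the control range of 12.1 to 37.6. The log2 difference was -4.57 ± 0.55 (limma, adjusted p = 0.00721). CEE against control gave 5.52 ± 0.55 for this probe set (adjusted p = 0.000439) and tibolone against control 0.95 ± 0.55 (adjusted p = 0.913). Its name ends in _s_at, which marks probes shared between transcripts, and the 3 other tested probe sets of TMPRSS3 did not pass, with -0.47 ± 0.56, -0.32 ± 0.43 and 0.19 ± 0.51. The difference therefore belongs to this probe set and was not seen across the gene.

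The probe set that was higher, MmugDNA.34701.1.S1_at, has no gene symbol in the annotation table. Its signals were 84.5, 99.98, 171 and 91.1 with CEE and 331, 706, 721 and 475 with tibolone. The lowest tibolone array lay above the highest of the other 12 arrays, since the control arrays had 56.1 to 115 and the CEE+MPA arrays 94.7 to 149. The log2 difference from CEE was 2.15 ± 0.26 (adjusted p = 0.00721), from control 2.41 ± 0.26 (adjusted p = 0.00163) and from CEE+MPA 1.97 (adjusted p = 0.00247).

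Both probe sets kept their direction in every alternative tried but not the call. Without the 4 arrays with a skeletal muscle mean over 1 (tibolone replicates 2 and 3, control replicate 1 and CEE+MPA replicate 1), the TMPRSS3 probe set had -4.04 and MmugDNA.34701.1.S1_at 1.74 (adjusted p = 0.425 each). This setting, also used below, left only tibolone replicates 1 and 4. Skeletal muscle content and the closeness of replicate 4 to CEE cannot be told apart in it. Within the high spike-in set they had -4.21 and 1.96 (adjusted p = 0.167 each). Leaving out CEE replicate 1 gave -4.39 and 2.05 (adjusted p = 0.0541 each), and no probe set passed.

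**Figure D2:**
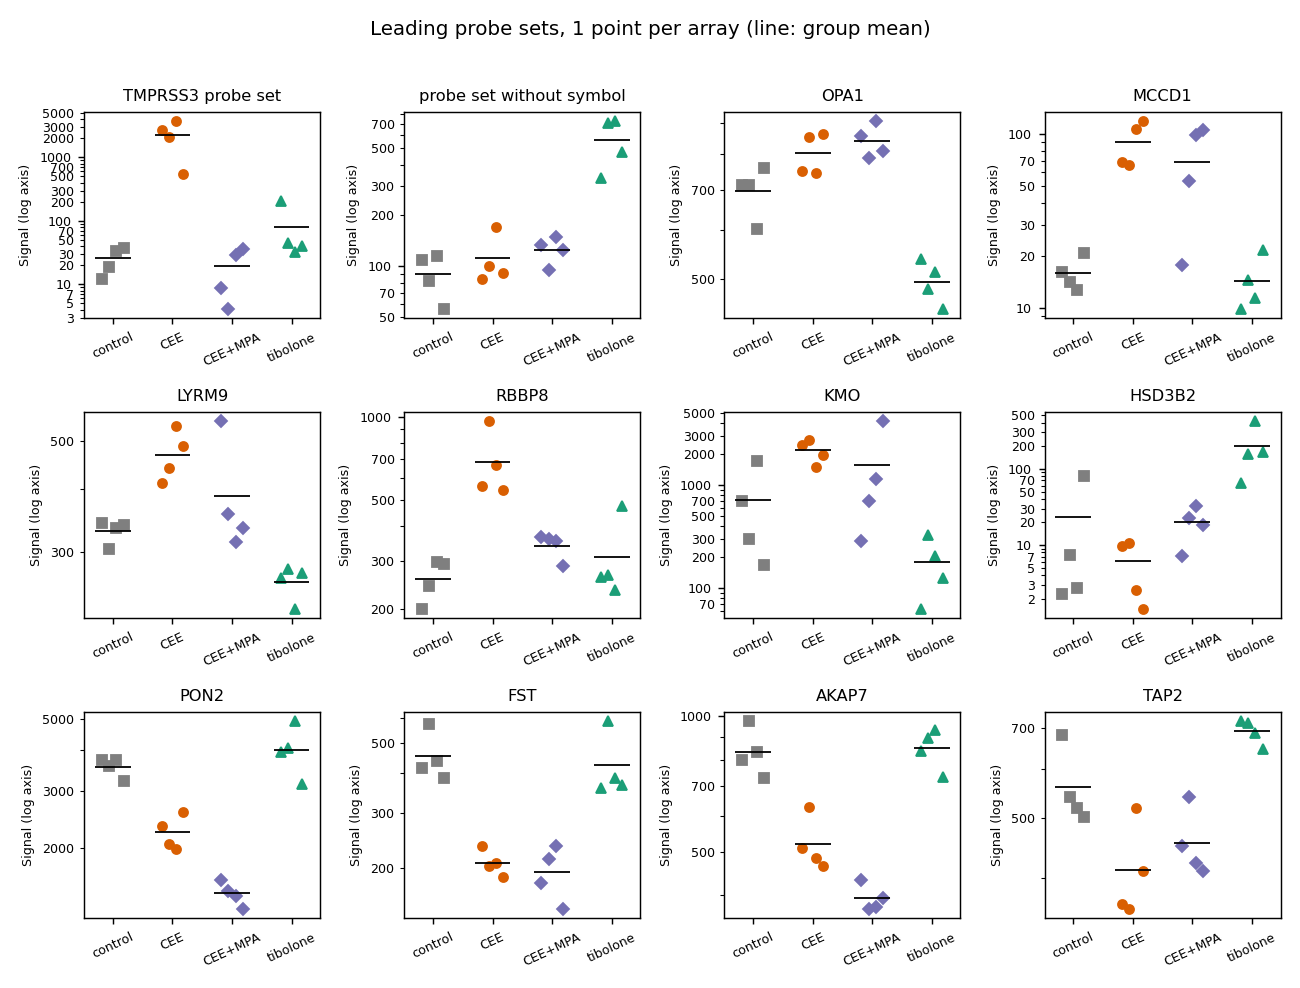
Signal (log axis) of the TMPRSS3 probe set, the probe set without a symbol and the 5 genes with the smallest p in each direction, with 1 point per array in 4 groups and a line at the group mean. In all 12 panels the tibolone arrays do not overlap the CEE arrays; for the TMPRSS3 probe set they are 32.2 to 205 against 545 to 3690, and for HSD3B2 65.7 to 417 against 1.47 to 10.6.

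HSD3B2, an enzyme of steroid hormone synthesis (3-beta-hydroxysteroid dehydrogenase), had the smallest p among genes. Its signals were 9.81, 10.6, 2.56 and 1.47 with CEE and 65.7, 155, 417 and 165 with tibolone. The groups did not overlap, and 1 control array (79.6) reached the tibolone range. The log2 difference was 3.07 ± 0.50 (adjusted p = 0.0725). Because the CEE signals were far below the minimum of 60.2, this size follows the offset and was 4.83 with an offset of 1 and 1.76 with 64.

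The other genes with the smallest p on the higher side had smaller differences and brighter signals. PON2, a paraoxonase, gave 2337, 2060, 1985 and 2586 with CEE and 3937, 4057, 4911 and 3159 with tibolone, a log2 difference of 0.83 ± 0.14 (adjusted p = 0.0725), and its 2 other probe sets gave 0.57 and 0.71. FST, which encodes the activin antagonist follistatin, gave 235, 203, 207 and 187 against 360, 585, 386 and 366, a log2 difference of 0.95 ± 0.18 (adjusted p = 0.132). Its 2 other probe sets gave 0.38 and 0.21, with overlapping arrays. On the brightest probe set of PON2 and of FST the tibolone arrays lay above all CEE arrays. The control range was 3219 to 3739 for PON2 and 386 to 573 for FST. AKAP7, an anchoring protein for protein kinase A, had 0.69 ± 0.13 (adjusted p = 0.134), although its other probe set had 0.02. TAP2, a peptide transporter of antigen presentation, had 0.74 ± 0.14 (adjusted p = 0.145). On the brightest probe set of each of these genes the 4 tibolone arrays were above the 4 CEE arrays.

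On the lower side OPA1, a GTPase of mitochondrial fusion, gave 751, 855, 747 and 863 with CEE and 537, 480, 513 and 446 with tibolone. The arrays did not overlap, and the tibolone values were also below all control values (604 to 759). The log2 difference was -0.69 ± 0.12 (adjusted p = 0.0725), whereas its 3 dimmer probe sets had -0.23, 0.03 and -0.12. MCCD1 gave 69.1, 66.0, 106 and 118 with CEE against 9.97, 14.5, 11.5 and 21.6, a log2 difference of -1.78 ± 0.31 (adjusted p = 0.0725). Its tibolone signals were under the minimum, so this size follows the offset and was -2.57 with an offset of 1 and -0.96 with 64. The control arrays had 12.8 to 20.7, with 2 tibolone arrays below that range, 1 within it and 1 above. LYRM9 had -0.80 ± 0.16 (adjusted p = 0.145), with 411 to 534 on CEE arrays and 231 to 277 on tibolone arrays. KMO, the kynurenine 3-monooxygenase of tryptophan breakdown, gave 2464, 2750, 1480 and 1969 with CEE and 63.2, 330, 204 and 126 with tibolone. It had the lowest log2 difference of all genes tested, -3.63 ± 0.73 (adjusted p = 0.162), and its control arrays spread from 166 to 1726.

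**Figure D3:**
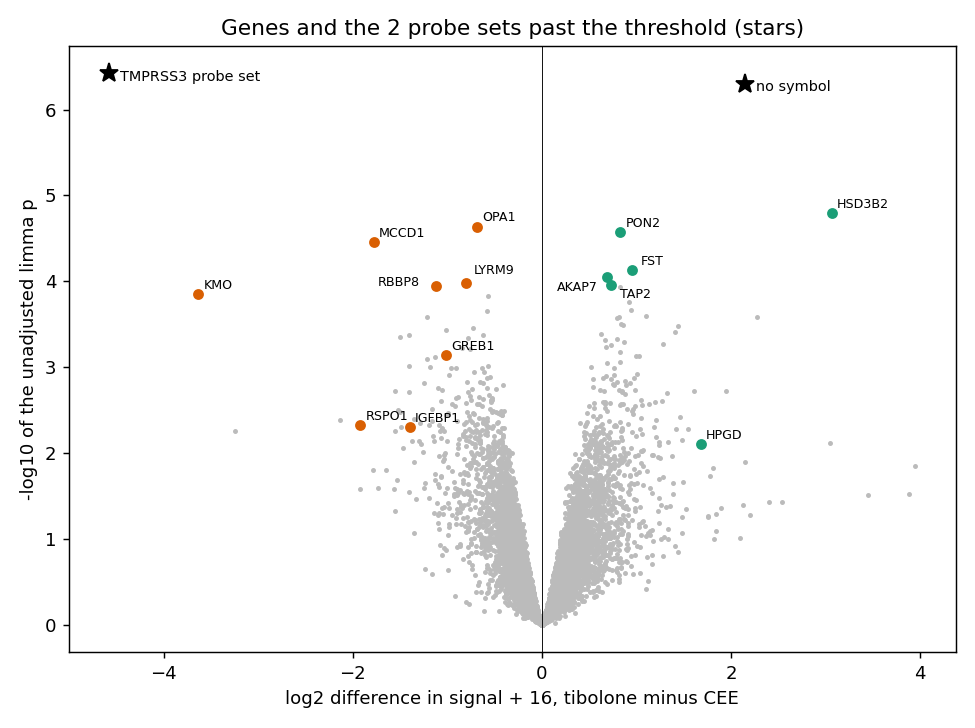
Log2 difference of tibolone minus CEE (x axis) against -log10 of the unadjusted limma p (y axis) for 10455 genes (grey) and the 2 probe sets past the adjusted threshold (stars). Coloured points are named genes, orange lower and green higher with tibolone. The TMPRSS3 probe set (-4.57) and the probe set without a symbol (2.15) stand above all genes, of which HSD3B2 (3.07) is the highest.

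The number of calls moved with single arrays. Without tibolone replicate 4, 238 probe sets passed (98 higher and 140 lower). That included 101 genes (0.966%), 44 higher (0.421%) and 57 lower (0.545%). The count was 0 without CEE replicate 1, 7 without CEE replicate 3 and 4 without tibolone replicate 1. It was also 0 without the arrays high in skeletal muscle, with a skeletal muscle covariate, and with a block for the 2 spike-in sets. Genes past the threshold without tibolone replicate 4 included HSD3B2 at 3.07 (adjusted p = 0.0301), HPGD at 2.42 (0.0219), STAT5B at -1.28 (0.0219), RBBP8 at -1.34 (0.0219), PON2 at 0.94 (0.0219), RSPO1 at -2.46 (0.0462) and EGF, an epidermal growth factor gene, at -2.30 (0.0478). Of the genes named by rule with all arrays, 17 passed there. Of the 101 genes, 87 had tibolone replicate 4 nearer the CEE mean, so that leaving it out widened their difference by construction. Since this array was singled out from the same values, these calls are descriptive and no separate support.

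The estrogen receptor targets GREB1 and IGFBP1 lay between their control and CEE levels on every tibolone array. GREB1, a direct target and receptor cofactor, gave 431, 514, 398 and 234 with CEE and 209, 222, 150 and 150 with tibolone. All tibolone arrays lay below all CEE arrays and above all control arrays (21.7 to 41.4). The log2 difference was -1.01 ± 0.24 (adjusted p = 0.218, 95% interval -1.53 to -0.50). Set side by side, CEE against control gave 3.15 ± 0.24 (adjusted p = 2.2e-05) and tibolone against control 2.14 ± 0.24 (adjusted p = 0.00163), and these contrasts share the CEE, tibolone and control arrays.

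IGFBP1, an insulin-like growth factor binding protein, had the same order. Its signals were 689, 530, 2342 and 516 with CEE, 218, 384, 300.3 and 322 with tibolone, and 26.4 to 105 in controls, with no overlap between the 3 groups. The log2 difference from CEE was -1.40 ± 0.43 (adjusted p = 0.273). BCAS1, a gene amplified in breast cancer, gave 146, 199.5, 114 and 112 against 86.5, 47.9, 60.2 and 55.0, or -1.01 ± 0.22 (adjusted p = 0.178). RBBP8, a DNA repair gene, gave 559, 963, 670 and 540 against 261, 267, 234 and 475, or -1.12 ± 0.22 (adjusted p = 0.145). For both the tibolone arrays lay below the CEE arrays and 3 of the 4 were near the control range (30.5 to 56.6 and 201 to 298).

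The secreted trefoil factor TFF3 overlapped between groups, with 3062, 581, 1900 and 302 under CEE and 479, 593, 118 and 182 under tibolone (-1.78 ± 0.66, adjusted p = 0.323). PGR, the progesterone receptor, gave 152, 98.8, 66.9 and 36.6 with CEE and 59.1, 179, 56.6 and 5.80 with tibolone. Its groups overlapped, the difference was -0.47 ± 0.48 (adjusted p = 0.719, interval -1.49 to 0.56), and without tibolone replicate 4, the dimmest array, it was 0.091. ESR1 and PDZK1 stayed under the signal minimum, with highest signals of 64.1 and 60.9. Over the estrogen response list 4 of 48 tested genes were higher and 7 lower at an unadjusted p under 0.05 (22.9%, against 13.0% of all genes), and none passed the adjusted threshold. The list median was 0.05 and was -0.02 with median centring, and its sign turned in 6 of 18 alternatives, among them leaving out CEE replicate 4 (-0.041), tibolone replicate 1 (-0.016) or tibolone replicate 2 (-0.066).

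**Figure D4:**
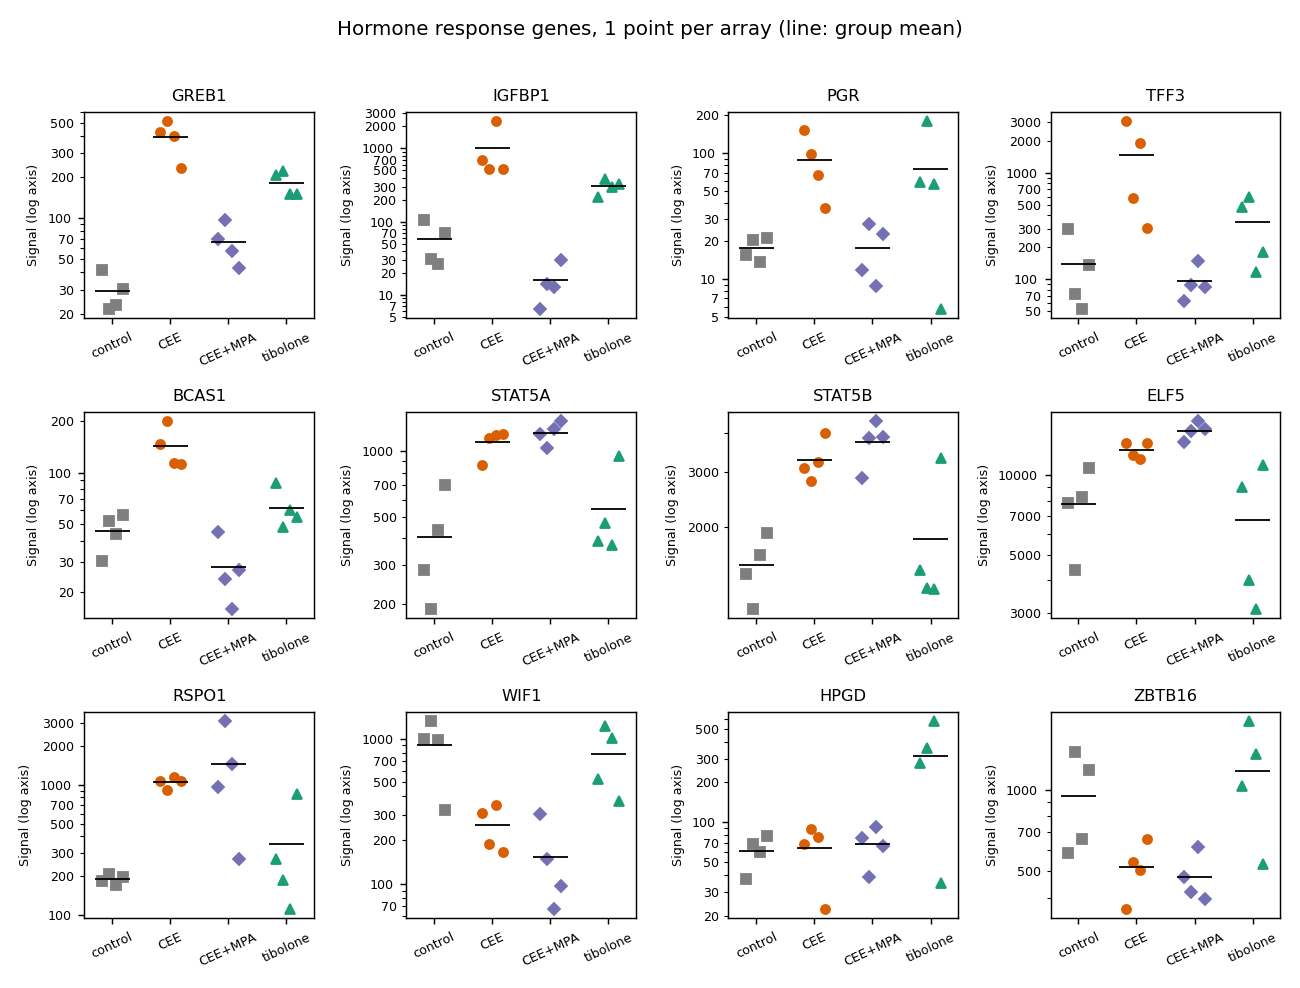
Signal (log axis) of 12 hormone response genes in 4 groups, 1 point per array with a line at the group mean. GREB1 and IGFBP1 lie between control and CEE on all tibolone arrays (150 to 222 and 218 to 384). STAT5B, RSPO1, HPGD and ZBTB16 show 1 tibolone array, replicate 4, at or near the CEE values (3325, 847, 35.0 and 533).

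The 2 STAT5 genes, which carry the prolactin signal in mammary epithelium, lay lower on 3 tibolone arrays. STAT5B gave 3090, 2793, 3232 and 4002 with CEE and 1457, 1272, 1267 and 3325 with tibolone. Replicate 4 overlapped the CEE range while replicates 1 to 3 lay in the control range (1094 to 1912). The log2 difference was -0.95 ± 0.27 (adjusted p = 0.256), and the other 3 probe sets had -0.59, -0.70 and -0.41. STAT5A gave 865, 1146, 1196 and 1200 against 388, 468, 374 and 957, or -1.09 ± 0.33 (adjusted p = 0.269). Without tibolone replicate 4, left out after its values were seen, both were lower past the threshold (STAT5A -1.39, adjusted p = 0.0480). Tibolone against CEE+MPA, which shares the tibolone arrays, gave -1.24 for STAT5A (adjusted p = 0.0403) and -1.13 for STAT5B (adjusted p = 0.0278).

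ELF5, a transcription factor of alveolar differentiation, gave 13291, 11956, 11518 and 13276 with CEE and 9034, 4002, 3127 and 10926 with tibolone. The arrays did not overlap (-1.07 ± 0.33, adjusted p = 0.277, other probe set -1.78). Without the arrays high in skeletal muscle, which left tibolone replicates 1 and 4, the ELF5 difference was -0.33. Whether that tissue contributed was not tested further. CISH, a STAT5 target, had -0.85 ± 0.39 (adjusted p = 0.405), and SOCS1, a suppressor of cytokine signalling, had 0.84 ± 0.18 (adjusted p = 0.173) with all tibolone arrays above the CEE arrays. In the prolactin and STAT5 list 3 of 17 genes were higher and 4 lower at an unadjusted p under 0.05 (41.2%, against 13.0% of all genes), with a median of 0.09. The median turned sign in 4 of 18 alternatives, to -0.091 without CEE replicate 4, -0.16 without tibolone replicate 2, -0.13 without the arrays high in skeletal muscle and -0.11 with the skeletal muscle covariate. The 4 lower genes of this list, STAT5A, STAT5B, ELF5 and CISH, are also among the lower genes of the progestin response list below.

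The progestin response list had the lowest median of the 30 lists described, -0.44, with 2 of 32 genes higher and 6 lower at an unadjusted p under 0.05 (25%, against 13.0% of all genes). Its mean per array (log2, centred per gene) was 0.10, 0.11, 0.05 and 0.43 with CEE and -0.04, 0.12, -0.28 and -0.22 with tibolone. With CEE+MPA it was 0.05, -0.0027, -0.03 and 0.22. The arrays given the progestin MPA thus did not lie above those given CEE alone, and the lower median is no measure of less progestin action. With 1 array left out at a time the list median lay between -0.41 and -0.24, and leaving out CEE replicate 4 gave the value nearest 0. Over all 18 alternatives it ranged from -0.51 to -0.24. The higher members were RASD1, a small GTPase induced by steroids, and ZBTB16, a zinc finger factor induced by progestins and glucocorticoids. RASD1 gave 362, 529, 381 and 392 with CEE and 1827, 1131, 1165 and 517 with tibolone (1.33 ± 0.36, adjusted p = 0.245). ZBTB16 gave 364, 540, 505 and 659 against 1030, 1796, 1355 and 533 (1.06 ± 0.34, adjusted p = 0.281). In both only tibolone replicate 4 reached the CEE range, and both passed without it (1.67, adjusted p = 0.0376, and 1.40, adjusted p = 0.0440). Control arrays had 525 to 1485 for RASD1 and 585 to 1388 for ZBTB16, and CEE+MPA arrays 186 to 334 and 395 to 613. Tibolone against control gave 0.22 ± 0.36 for RASD1 and 0.27 ± 0.34 for ZBTB16 (limma, adjusted p = 0.952 and 0.940). No rise over control was called for either. DLK1, a Notch-like ligand, had -1.09 ± 0.57 (adjusted p = 0.463) with overlapping arrays.

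Of the androgen response list, 3 of 23 genes were higher and 1 lower at an unadjusted p under 0.05 (17.4%, against 13.0% of all genes), with a median of 0.15 that was 0.010 with the spike-in block. HPGD, which inactivates prostaglandins, gave 68.5, 88.7, 77.1 and 22.5 with CEE and 279, 361, 573 and 35.0 with tibolone. Replicates 1 to 3 lay above every control, CEE and CEE+MPA array, and replicate 4 among the CEE arrays. The difference was 1.68 ± 0.55 (adjusted p = 0.284). APOD, a lipocalin of apocrine cells, had 0.62 ± 0.21 (adjusted p = 0.291), PIP had 0.90 ± 0.66 and AZGP1 -0.76 ± 1.31, the latter with an interval of -3.55 to 2.02. The other PIP probe set had -0.48. The steroid metabolism list, which holds HSD3B2, had 3 of 14 genes higher and 1 lower (28.6%), with a median of 0.02 that was -0.04 with median centring and turned sign in 5 of 18 alternatives, among them leaving out CEE replicate 1 (-0.041), tibolone replicate 1 (-0.035) or tibolone replicate 2 (-0.0052). ESR2, estrogen receptor beta, had 0.54 ± 0.18 (adjusted p = 0.284) at signals of 50.8 to 134, and NR3C1, the glucocorticoid receptor, -0.52 ± 0.22 (adjusted p = 0.370). The other NR3C1 probe sets had 0.13 and 0.09. HSD17B2, which oxidizes estradiol to estrone, had -0.47 ± 0.35 and overlapped. Glucocorticoid receptor targets had 1 of 25 higher and 3 lower (16%, against 13.0% of all genes). Their median of -0.10 turned to 0.13 without tibolone replicate 1 and 0.19 without tibolone replicate 4. Beside ZBTB16 the smallest p values belonged to FAM107A (-0.71 ± 0.29) and LCN2 (-1.19 ± 0.51), and FKBP5 was under the minimum. A dimmer LCN2 probe set had 0.30.

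In the Wnt and RANKL list 6 of 26 genes were higher and 2 lower at an unadjusted p under 0.05 (30.8%, against 13.0% of all genes), with a median of 0.21, or 0.081 without the arrays high in skeletal muscle. RSPO1, an R-spondin that amplifies Wnt signals, gave 1073, 907, 1140 and 1078 with CEE and 268, 183, 111 and 847 with tibolone. Replicates 1 to 3 were near the control range of 169 to 207, and replicate 4 near the CEE arrays. The difference was -1.92 ± 0.58 (adjusted p = 0.270). WIF1, a secreted Wnt inhibitor, gave 305, 188, 351 and 167 against 527, 1215, 1011 and 371, with no overlap (1.48 ± 0.48, adjusted p = 0.284). Its control range was 320 to 1315. WNT5B had 0.71 ± 0.26 (adjusted p = 0.312), and LGR5, an R-spondin receptor, 0.84 ± 0.61 with an interval of -0.45 to 2.13.

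Among IGF genes 4 of 19 were higher and 2 lower at an unadjusted p under 0.05 (31.6%, against 13.0% of all genes), with a median of 0.17, or 0.0083 without the arrays high in skeletal muscle. Beside IGFBP1, IGFBP6 gave 5885, 4247, 5003 and 4401 with CEE and 8956, 10844, 8728 and 6727 with tibolone, with no overlap (0.84 ± 0.24, adjusted p = 0.256). GRB10, an adaptor of insulin-type receptors, had -0.52 ± 0.16 (adjusted p = 0.273). Regulators of the TGF-beta family, which include FST, had 6 of 32 genes higher and 0 lower (18.8%), with a median of 0.27, or 0.091 without the arrays high in skeletal muscle. HTRA1, a secreted protease, gave 2460, 2660, 2874 and 2077 against 3357, 3772, 3631 and 3110 (0.47 ± 0.15, adjusted p = 0.277). Its tibolone arrays lay above the CEE arrays and below the controls (4147 to 6077). CHRD, the BMP antagonist chordin, had 0.60 ± 0.25 (adjusted p = 0.374).

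The milk protein and milk fat list had 2 of 22 genes higher and 3 lower (22.7%, against 13.0% of all genes). Its median of -0.16 turned sign in 4 of 18 alternatives, to 0.067 without tibolone replicate 3, 0.0090 without tibolone replicate 4, 0.15 without the arrays high in skeletal muscle and 0.13 with the luminal covariate. PIGR, which carries immunoglobulin A across the epithelium, gave 351, 839, 1172 and 639 with CEE and 126, 108, 66.4 and 434 with tibolone. Only tibolone replicate 4 reached the CEE range (-2.14 ± 0.64, adjusted p = 0.263). MUC15, a membrane mucin, had -1.15 ± 0.37 (adjusted p = 0.283), and -0.44 without the arrays high in skeletal muscle. The casein genes were bright in both groups and not separated. CSN2 had 0.06 ± 0.14 (interval -0.24 to 0.35) and CSN3 -0.22 ± 0.20 (interval -0.64 to 0.19), and the sign of either turned in some alternatives. Of the secreted defence proteins 3 of 22 were higher and 4 lower (31.8%), with a median of 0.28, or 0.068 without the arrays high in skeletal muscle. WFDC2 gave 2026, 2358, 1595 and 879 with CEE and 4298, 10048, 4626 and 1575 with tibolone (1.38 ± 0.48, adjusted p = 0.295). Its mean control signal was 4273. SPP1, osteopontin, gave 461, 2029, 897 and 146 against 14504, 5306, 3095 and 458, where only tibolone replicate 4 overlapped the CEE arrays (2.41 ± 1.06, adjusted p = 0.389). Control arrays had 7211 to 12741 for SPP1, and its difference from control was -3.94 ± 1.06 with CEE and -1.53 ± 1.06 with tibolone.

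Luminal epithelial markers had 0 of 27 higher and 4 lower at an unadjusted p under 0.05 (14.8%, near the 13.0% of all genes), with a median of -0.21 that was 0.0058 without tibolone replicate 3 and 0.088 without the arrays high in skeletal muscle. EHF, an epithelial transcription factor, had -0.51 ± 0.22 (adjusted p = 0.391), and ST14, a membrane protease, -0.50 ± 0.22 (adjusted p = 0.389). The other ST14 probe sets had -0.37 to 0.34. Basal and myoepithelial markers had 0 of 19 either way and a median of 0.00 that was -0.07 with median centring and turned sign in 5 of 18 alternatives, among them leaving out CEE replicate 3 (-0.021), CEE replicate 4 (-0.0019), tibolone replicate 1 (-0.057) or tibolone replicate 2 (-0.073). Their smallest p values belonged to S100A2 (-0.40 ± 0.25), TP63, the basal factor p63 (-0.23 ± 0.15), and OXTR, the oxytocin receptor (0.41 ± 0.28). In smooth muscle 1 of 18 was higher (5.56%, below the 13.0% of all genes, median 0.19), namely the small heat shock protein HSPB6 (0.83 ± 0.35), while MYH11, smooth muscle myosin, had 0.59 ± 0.28 (adjusted p = 0.428) and KCNMB1, a potassium channel subunit, 0.41 ± 0.22.

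Stromal lists had medians on the higher side. Of the fibroblast and matrix list 10 of 34 genes were higher and 2 lower at an unadjusted p under 0.05 (35.3%, against 13.0% of all genes), with a median of 0.15, or 0.017 without the arrays high in skeletal muscle. FBLN1, the matrix protein fibulin 1, gave 1281, 851, 1127 and 814 with CEE and 2173, 2266, 2454 and 1474 with tibolone. Its arrays did not overlap (1.03 ± 0.25, adjusted p = 0.218), its 2 other probe sets had 1.11 and 0.88, and it passed without tibolone replicate 4 (1.19, adjusted p = 0.0440). The control range of FBLN1 was 1733 to 3758. PI16 had 0.97 ± 0.28 (adjusted p = 0.257). COL3A1, collagen III, had -0.62 ± 0.16 (adjusted p = 0.239), but the probe set carrying its symbol was dim for a fibrillar collagen, at 50.5 to 133.

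Endothelial markers had 6 of 21 genes higher and 0 lower (28.6%, against 13.0% of all genes, median 0.31). The arrays did not overlap for 5 of the 21 (all on the higher side, against 2.87% of all genes), among them EGFL7 with 394, 385, 520 and 441 under CEE and 836, 911, 936 and 546 under tibolone (0.85 ± 0.27, adjusted p = 0.284). CLDN5, a tight junction protein of vessels, had 0.69 ± 0.24 (adjusted p = 0.295) and PALMD 0.77 ± 0.23 (adjusted p = 0.269). The markers PECAM1, CDH5 and VWF had 0.10 ± 0.19, 0.08 ± 0.18 and 0.47 ± 0.27. The adipocyte list had a higher median, 0.55, with 2 of 25 genes higher (8%, below the 13.0% of all genes). RETN, resistin, had 0.69 ± 0.22, CFD, the adipokine adipsin, 0.94 ± 0.36 and DGAT1, an enzyme of triglyceride synthesis, 0.55 ± 0.28. The fat cell markers ADIPOQ, FABP4 and LEP had 0.81 ± 0.70, -0.04 ± 0.21 and -0.06 ± 0.75. Without the arrays high in skeletal muscle, which left tibolone replicates 1 and 4, the medians were 0.13 for endothelial and 0.06 for adipocyte markers. The part of tissue content in these medians was not tested.

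Of the myeloid list 6 of 25 were higher and 0 lower (24%, against 13.0% of all genes), with a median of 0.56, or 0.16 without the arrays high in skeletal muscle. C1QB, a complement protein of macrophages, gave 701, 962, 1176 and 539 with CEE and 1449, 1698, 2421 and 834 with tibolone (0.87 ± 0.30, adjusted p = 0.291). Its control range was 1304 to 2014. The macrophage marker CD68 had 0.70 ± 0.28 (adjusted p = 0.350) and the receptor CLEC7A 0.64 ± 0.21 (adjusted p = 0.285). Their other probe sets had -0.05 and 0.05. T and NK cell markers were mixed, with 1 of 11 higher and 1 lower (18.2%), and their median of 0.26 was -0.044 with the skeletal muscle covariate and 0.016 without CEE replicate 1. CD4, a coreceptor of helper T cells, had 0.45 ± 0.17, KLRD1, an NK receptor, -0.37 ± 0.12 and GZMK, a granzyme, -0.39 ± 0.19. B and plasma cell markers had 1 of 12 higher (8.33%, below the 13.0% of all genes, median 0.20). CD22, a B cell surface protein, had a signal of 774 on tibolone replicate 3 and of 53.5 to 88.8 on the other 7 arrays. Its difference of 0.76 ± 0.53 was -0.053 without tibolone replicate 3. BANK1, a B cell adaptor, had 0.73 ± 0.24 (adjusted p = 0.284) and IRF4, a plasma cell factor, 0.45 ± 0.27.

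Skeletal muscle genes had the highest median, 1.62, and all 20 tested were on the higher side, 6 of them at an unadjusted p under 0.05 (30%, against 13.0% of all genes). MYL1, a fast myosin light chain, gave 5.33, 1.58, 12.4 and 10.2 with CEE and 161, 2407, 1531 and 4.14 with tibolone (3.89 ± 1.63, adjusted p = 0.373). MYH2, a fast myosin heavy chain, had 12.9, 11.9, 30.8 and 36.1 against 36.0, 2801, 345 and 25.9 (2.54 ± 1.11, adjusted p = 0.388). TNNT3, fast troponin T, had 125, 65.4, 161 and 200 against 300, 937, 742 and 254 (1.78 ± 0.68, adjusted p = 0.337). The highest signals of MYL1, MYH2 and TNNT3 were on tibolone replicates 2 and 3, while replicate 1 also lay above the CEE arrays for MYL1 and TNNT3, and replicate 4 for TNNT3. The list median was 0.31 without replicates 2 and 3 and the other arrays above the same mean. Their part in the other differences was examined only by the covariate and the left-out arrays, and the latter left only tibolone replicates 1 and 4.

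Interferon, chemokine and immediate early lists also had medians above 0. Of the interferon response list 4 of 31 were higher and 1 lower at an unadjusted p under 0.05 (16.1%, near the 13.0% of all genes), with a median of 0.22, or 0.13 without CEE replicate 4. IRF7, the interferon regulatory factor, gave 73.5, 173, 122 and 61.5 with CEE and 329, 199, 283 and 266 with tibolone, without overlap (1.28 ± 0.30, adjusted p = 0.199). OAS2 and SAMD9L, both induced by interferon, had 0.59 ± 0.19 and 0.50 ± 0.17. Chemokines and interleukins had 6 of 35 higher and 1 lower (20%), with a median of 0.36, or 0.22 without the arrays high in skeletal muscle. CCL3, a macrophage chemokine, gave 18.5, 52.9, 29.4 and 16.5 against 192, 57.1, 73.5 and 58.3 (1.21 ± 0.36, adjusted p = 0.265), with no overlap on this probe set and 0.06 on the other. CXCL12, a stromal chemokine, had 0.77 ± 0.26 (adjusted p = 0.295) and -0.29 on its other probe set. CCL11, eotaxin, had 0.71 ± 0.28. Immediate early genes had 5 of 24 higher and 0 lower (20.8%), with a median of 0.42 that was 0.20 without the arrays high in skeletal muscle and 0.0038 with the skeletal muscle covariate. Their smallest p values included BTG2, an antiproliferative factor, at 0.77 ± 0.25, KLF2 at 1.02 ± 0.35 and IER2 at 0.76 ± 0.26.

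Cell cycle genes had 0 of 43 at an unadjusted p under 0.05 in either direction, with a median of 0.18 that was -0.05 without tibolone replicate 1. MKI67, the proliferation marker Ki-67, gave 177, 84.4, 187 and 125 with CEE and 284, 103, 206 and 127 with tibolone. The groups overlapped and the difference was 0.26 ± 0.43, with an interval of -0.65 to 1.17. MCM4 and MCM5, of the replication helicase, had 0.44 ± 0.22 and 0.58 ± 0.37, and CENPA, the centromeric histone, 0.79 ± 0.55.

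Mitochondrial genes lay mostly on the lower side with small differences. Of 58 mitochondrial ribosomal protein genes, 49 were lower and 9 higher in value, 10 were lower and 0 higher at an unadjusted p under 0.05 (17.2%, against 13.0% of all genes), and the median was -0.20. MRPL45 gave 1996, 1716, 1687 and 1577 with CEE and 1149, 846, 751 and 1452 with tibolone (-0.77 ± 0.22, adjusted p = 0.257). MRPS23 had -0.67 ± 0.19 and MRPL48 -0.63 ± 0.18, each without overlap, although a second MRPL48 probe set had 0.0033. Respiratory chain and ATP synthase genes had 0 of 48 higher and 5 lower (10.4%, below the share of all genes), with a median of -0.10. ATP5F1C had -0.42 ± 0.14, NDUFS4 -0.38 ± 0.14 and NDUFA7 -0.40 ± 0.16. A dimmer ATP5F1C probe set had 0.21. Without the arrays high in skeletal muscle the medians of these lists were -0.04 and 0.03.

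**Figure D5:**
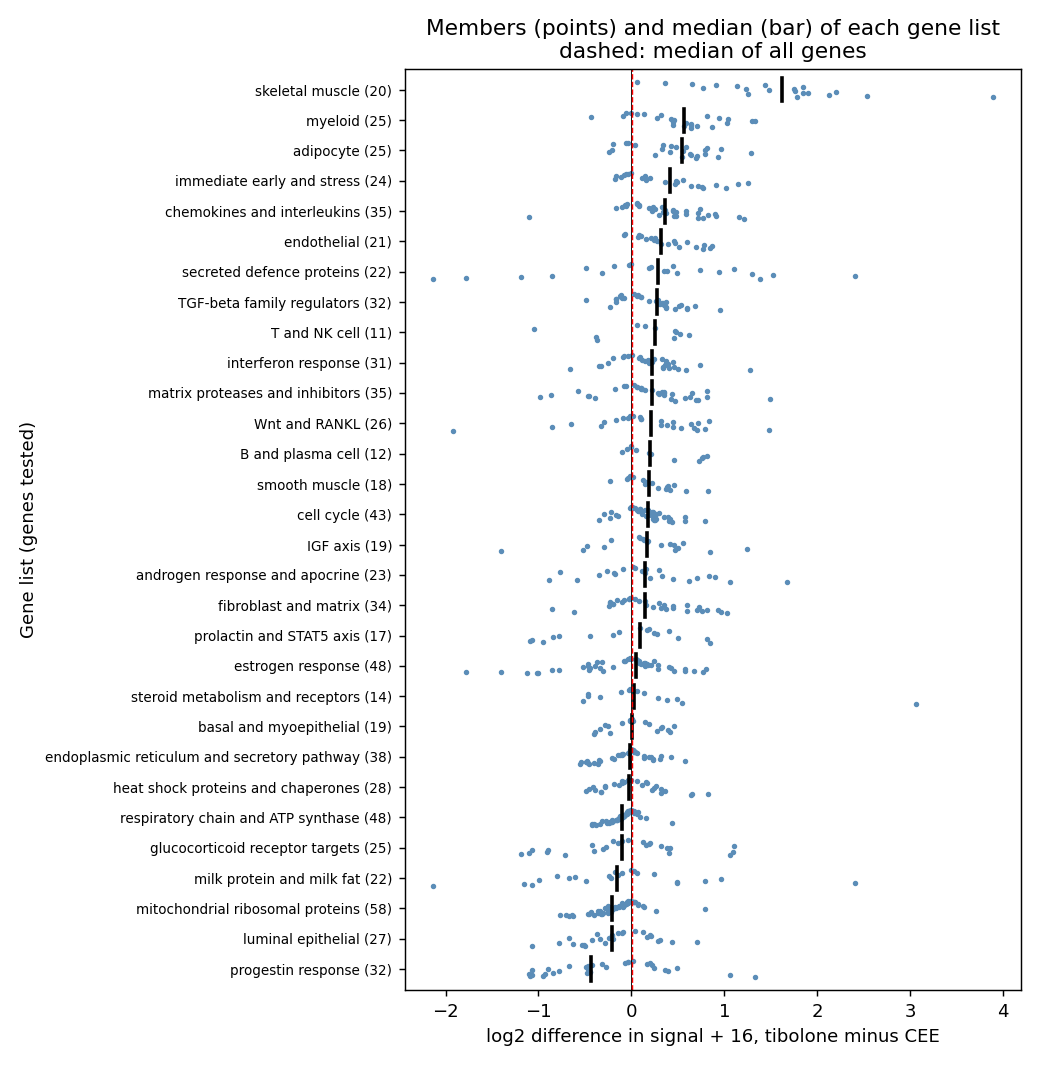
Log2 difference of tibolone minus CEE (x axis) for the tested members of each of 30 gene lists (points), with the list median (black bar) and the number tested in brackets. The dashed line is the median of all genes (0.01). Skeletal muscle (1.62), myeloid (0.56) and adipocyte (0.55) medians are the highest, and progestin response (-0.44) the lowest. The first 3 are 0.31, 0.16 and 0.063 without the arrays high in skeletal muscle, which leaves tibolone replicates 1 and 4.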

How the data were processed

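RNA from mammary tissue of 16 animals was hybridized to 1 Affymetrix rhesus macaque array each, per the labels. The deposited values were linear signal intensity per probe set, which the authors had scaled to a common mean (250.01 to 250.02 without the outer 2% at either end). GCOS and Affymetrix Expression Console are named per the submitters' processing notes, with no algorithm. The precision rests on the number of arrays.

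Of 52865 probe sets, 99 Affymetrix controls were left out, and 28716 with a signal over 60.2 (the median) on at least 4 of 16 arrays were tested. Of these 17152 had 1 gene symbol in the annotation table, 245 several and 11319 none. The brightest tested probe set, by mean log2(signal + 16), stood for each of 10455 genes, of which 9560 are in the cynomolgus RefSeq gene table. Other tested probe sets are given for some genes only.

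Log2(signal + 16) of all 16 arrays entered a limma model of group means (12 residual degrees of freedom, 15.8 with the prior). The contrast of tibolone minus CEE was two-sided, with Benjamini-Hochberg adjustment over all tested probe sets at 0.05. The offset of 16 understates differences of dim probe sets. Errors are standard errors, intervals are 95%, and p-values measure the spread between animals. Single measures per array had an exact permutation test (two-sided), whose smallest p is 0.0286 for 4 against 4.

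The members, gene lists and panel were chosen with earlier results of these data known. Lists share members, such as ELF5, PIGR, SPP1 and ZBTB16, so the counts of different lists are not separate results. Named were the 12 largest differences each way among genes past the threshold, the 5 smallest p in a direction with fewer than 5 calls, the 3 smallest p in each of 30 described lists out of 38 written down, and a panel of 30 genes, of which 22 were tested. The 2 probe sets past the threshold, the marker genes outside the rule and EGF were chosen after their values were seen. Code was tested on simulated data. Alternatives were quantile normalization, median centring, filters, offsets, a trended prior, array weights, the 8 arrays alone, a threshold of 0.10, spike-in sets, covariates and leaving out each CEE or tibolone array. Software was limma 3.58.1 in R 4.3.3, with figures by matplotlib 3.10.9 in Python 3.11.15.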

Additional observations from a re-analysis of the deposited data

Results flagged for a closer look

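Of 272 sets of 4 arrays examined (a named gene, list mean or technical measure within 1 group), 14 held an array far from the other 3 by Dixon's criterion, where chance gives about 5% of sets. The count is near that chance share, so the departures are listed as values only. The values below are log2(signal + 16) unless stated. Tibolone replicate 4 was high for STAT5B (11.71, the others at most 10.52) and GZMK (9.52, the others at most 8.74), and low for the endothelial gene PALMD (8.73, the others at least 9.50). Tibolone replicate 3 was high for the B cell genes CD22 (9.63, the others at most 6.40) and BANK1 (7.40, the others at most 6.22), and low for LCN2 (9.65, the others at least 11.95) and the spike-in control thr (6.22). Tibolone replicate 2 was high for FST (9.23). Tibolone replicate 1 was high for HSD17B2 (8.60) and for the TMPRSS3 probe set (7.79, the others at most 5.91). CEE replicate 1 was low for STAT5A (9.78) and CEE replicate 4 low for FAM107A (9.23). CEE replicate 4 also had the lowest estrogen response list mean (0.01, the others at least 0.29, log2 centred per gene) and the highest progestin response list mean (0.43, the others at most 0.11).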

How the results depend on the processing

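The 2 probe sets past the threshold kept their direction under every alternative run. The count of 2 probe sets and 0 genes became 7 and 2 with a filter at the 75th percentile and with an offset of 64, 6 and 1 with a trended prior, and 15 and 4 at a threshold of 0.10. It was 1 and 0 with an offset of 1, in the 8 arrays alone and within the high spike-in set. No probe set passed with a block for the 2 spike-in sets, with a skeletal muscle covariate or without the arrays high in skeletal muscle. In the 8 arrays alone and within the high spike-in set the probe set called was a different one. Leaving out each of the 8 CEE and tibolone arrays in turn gave 0 to 238 probe sets and 0 to 101 genes, the highest without tibolone replicate 4. Settings with fewer arrays, a block or a covariate have fewer residual degrees of freedom by construction, and the cause was not tested otherwise. Quantile normalization (3 probe sets), array weights (3), median centring, no filter and the dap, GAPDH and luminal covariates (2 each) stayed within 1.5 times. The share of probe sets higher with tibolone was 52.2%, 48.1% with quantile normalization and 42.1% with median centring.

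The sign turned for 5 named genes under some alternatives. CSN2 turned to -0.013 with median centring, and to -0.027, -0.047 and -0.0012 without CEE replicate 2, tibolone replicate 1 and tibolone replicate 4 (-0.047 to 0.14 over all left-out arrays). CSN3 turned to 0.19 without the arrays high in skeletal muscle, 0.024 with the luminal covariate and 0.0091 without tibolone replicate 3 (-0.40 to 0.0091). CD22 turned to -0.070 without the arrays high in skeletal muscle and -0.053 without tibolone replicate 3 (-0.053 to 1.06). PGR turned to 0.071 within the high spike-in set and 0.091 without tibolone replicate 4 (-0.96 to 0.091), and HSD17B2 to 0.11 within the high spike-in set. Of the other values of named items under an alternative, 2502 kept their direction and side of the threshold, 23 passed it newly and 13 no longer passed it. No paired analysis was possible because no animal was in more than 1 group and the replicate numbers come from deposition order. Arrays have no read depth, and probe sets near background, such as HSD3B2 with CEE and MCCD1 with tibolone, have sizes set by the offset.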

Other observations

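Genes of the endoplasmic reticulum and secretory pathway lay lower with tibolone for 8 of 38 tested members and higher for 1 at an unadjusted p under 0.05 (23.7%, against 13.0% of all genes), and none passed the adjusted threshold. SSR4, a subunit of the translocon-associated complex, gave signals of 6405, 6441, 7056 and 6223 with CEE and 5462, 3948, 3139 and 5703 with tibolone, so that the groups did not overlap (log2 difference -0.56 ± 0.19, limma, adjusted p = 0.289). SEC63, a translocon partner, had -0.46 ± 0.15 (adjusted p = 0.284), and ATF4, a transcription factor of the stress response, -0.36 ± 0.12 (adjusted p = 0.289), also without overlap. The list median was -0.02, and it was above 0 in 4 of 18 alternatives, among them quantile normalization (0.0058) and leaving out CEE replicate 1 (0.0030) or tibolone replicate 4 (0.0017).

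Matrix proteases and their inhibitors had 6 of 35 members higher and 1 lower at an unadjusted p under 0.05 (20.0%, median 0.22, and -0.01 without the arrays high in skeletal muscle). TIMP3, an inhibitor of matrix metalloproteinases, gave 295, 249, 333 and 375 with CEE and 447, 626, 675 and 379 with tibolone, without overlap (0.71 ± 0.24, adjusted p = 0.289). CTSZ, the protease cathepsin Z, had 0.70 ± 0.23 with overlapping arrays (adjusted p = 0.289). Heat shock proteins and chaperones had 4 of 28 higher and 1 lower (17.9%, against 13.0% of all genes), and their median of -0.02 turned sign in 7 of 18 alternatives (-0.092 to 0.092), among them leaving out tibolone replicate 1 (0.032), 2 (0.034) or 3 (0.0015). HSPH1, a chaperone of the Hsp110 family, gave 780, 760, 540 and 724 against 1041, 1102, 1552 and 786 without overlap (0.64 ± 0.25, adjusted p = 0.341), and BAG3, a co-chaperone, had 0.65 ± 0.27 (adjusted p = 0.364).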
